A study of Mus musculus with 19 samples.

Results

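TRBV19 is the mouse T cell receptor beta (TRB) variable segment known by its older name Vbeta6, and it is described here across lymph nodes and infarcted hearts. Its members are all listed entries whose variable segment is TRBV19, an entry being 1 CDR3 amino acid sequence with its variable (TRBV) and joining (TRBJ) segment, called a clone below. TRBV19 accounted for 242559 of 2146950 entries summed over 19 libraries, which are 180040 of 1505703 distinct clones, and for 35216117 of 145647255 reads. The segment was selected on its share of reads in these libraries, so that share is given as a description and carries no test.

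A T cell receptor beta chain is made when the thymus joins 1 variable, 1 diversity and 1 joining segment, with bases trimmed and added at the joints. The CDR3 loop lies over those joints and is the part that mostly contacts the peptide, while the variable segment supplies the loops that mostly contact the MHC molecule. Vbeta6 is best known for its reaction with the superantigen of the mouse mammary tumor virus Mtv-7: mice that carry this virus delete Vbeta6 T cells in the thymus, and BALB/c mice lack it and keep them. In RefSeq (GRCm38.p6) Trbv19 carries the synonym Tcrb-V6 and lies between Trbv18 and Trbv20, and all 22 segments in the files matched a RefSeq symbol. Since no build is named in the deposited tables, positions on the genome are left out.

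All libraries came from CD4+ T cells sorted from BALB/c mice, described in the labels as wild type with no age given, 7 days after surgery or immunization. The heart-draining mediastinal nodes were taken after ligation of the left anterior descending coronary artery, called MI (myocardial infarction) nodes (n = 3), or after thoracotomy without ligation, called sham nodes (n = 4). Both surgical groups received buprenorphine. The hearts (n = 3) were infarcted, with no sham heart in the series. Axillary nodes were taken after subcutaneous Titermax Gold adjuvant alone (200 µl, n = 4), 100 µg porcine cardiac myosin in adjuvant (n = 2) or 1 mg mouse heart extract in adjuvant (n = 3). For both antigens the labels give an adjuvant volume of 200 or 600 µl without saying which library had which. Node libraries were made from 500000 sorted cells and heart libraries from 5000, so tissue and cell number cannot be told apart in any comparison of heart with node. The labels do not say that each library came from 1 animal, so every p-value measures the spread between libraries, which may be technical. CD4 and other cell markers are not in these data, and the sorted identity could not be checked.

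Read totals ran from 7534295 to 9235800 in the 16 node libraries and from 2426715 to 5126910 in the hearts, and TRBV19 reads from 1637679 to 2240729 in nodes and from 890961 to 1565670 in hearts. Node libraries differed widely in the number of clones listed, from 45452 to 291639, and hearts listed 3156, 4504 and 5247. No entry had fewer than 2 reads.

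The CDR3 sequences that carry the heart results are the most abundant TRBV19 clone of each heart, then the largest TRBV19 clone of any node, then the clone present in every node. They are printed as deposited, from the amino end, and leave out the conserved cysteine before and phenylalanine after the loop. Residues are counted from the first printed letter.
Largest in heart 1, with TRBJ2-3: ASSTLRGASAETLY
Largest in heart 2, with TRBJ1-4: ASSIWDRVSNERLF
Largest in heart 3, with TRBJ2-5: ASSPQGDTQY
Largest in any node (MI node 3), with TRBJ1-1: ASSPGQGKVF
Listed in all 16 nodes, with TRBJ2-4: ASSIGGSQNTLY
All of them open with alanine and a pair of serines. The clones of hearts 1 and 2 have 14 residues, that of heart 3 has 10, and that in all nodes has 12.

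TRBV19 was the most used of 22 segments by reads in 17 of 19 libraries. The exceptions were adjuvant nodes 1 and 3, where it ranked second behind TRBV5 (Vbeta1). It held 24.8%, 24.1%, 22.3% and 23.8% of all reads in sham nodes 1 to 4, and 23.3%, 23.4% and 24.5% in MI nodes 1 to 3. The sham and MI ranges overlap. After adjuvant alone it held 21.2%, 23.4%, 21.1% and 21.9%, after myosin 24.4% and 23.1%, and after heart extract 23.3%, 24.7% and 25.3%. Adjuvant node 2 lay above the lowest myosin and heart extract nodes, and the other 3 adjuvant nodes lay below all of them. In hearts 1 to 3 it held 36.7%, 32.4% and 30.5%, all above every node. The order of the group means was heart at 33.2% ± 3.17 (SD, n = 3), heart extract at 24.4% ± 1.02 (n = 3), myosin at 23.8% ± 0.962 (n = 2), sham at 23.8% ± 1.03 (n = 4), MI at 23.7% ± 0.654 (n = 3) and adjuvant at 21.9% ± 1.05 (n = 4). Every pair of neighbours in that order overlaps except heart and heart extract. At this depth counting error is small: the 95% Wilson interval of heart 1, the library with the fewest reads, ran from 36.65% to 36.78%. Intervals cover counting error only, since PCR reads without molecular identifiers are not independent molecules.

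The share of clones was far lower than the share of reads. TRBV19 made up 11.6% ± 1.02 of listed clones in the 16 nodes (lowest 9.89%, highest 13.9%) and 20.5%, 17.7% and 19.3% in hearts 1 to 3, above every node. Among clones of at least 10 reads the hearts stayed above every node, at 23.6%, 19.8% and 20.9% against 6.93% to 15.5%. At a minimum of 100 reads the order changed: TRBV19 made up 13.9%, 14.3% and 12.3% in hearts 1 to 3. These lay below every MI node (31.2% to 34.4%) and every sham node (16.4% to 33.1%), and within the range of all 16 nodes (11.1% to 34.4%). Heart libraries had 5000 sorted cells and node libraries 500000, so the same read minimum need not mean the same number of cells. In RNA-based libraries more cells and more transcripts per cell cannot be told apart, and unequal amplification of segments was not tested. Shares of reads and clones differed for other segments too. In sham nodes TRBV14 held 13.8% of reads and 4.45% of clones, and TRBV13-2 held 4.72% and 14.2%.

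**Figure D1:**
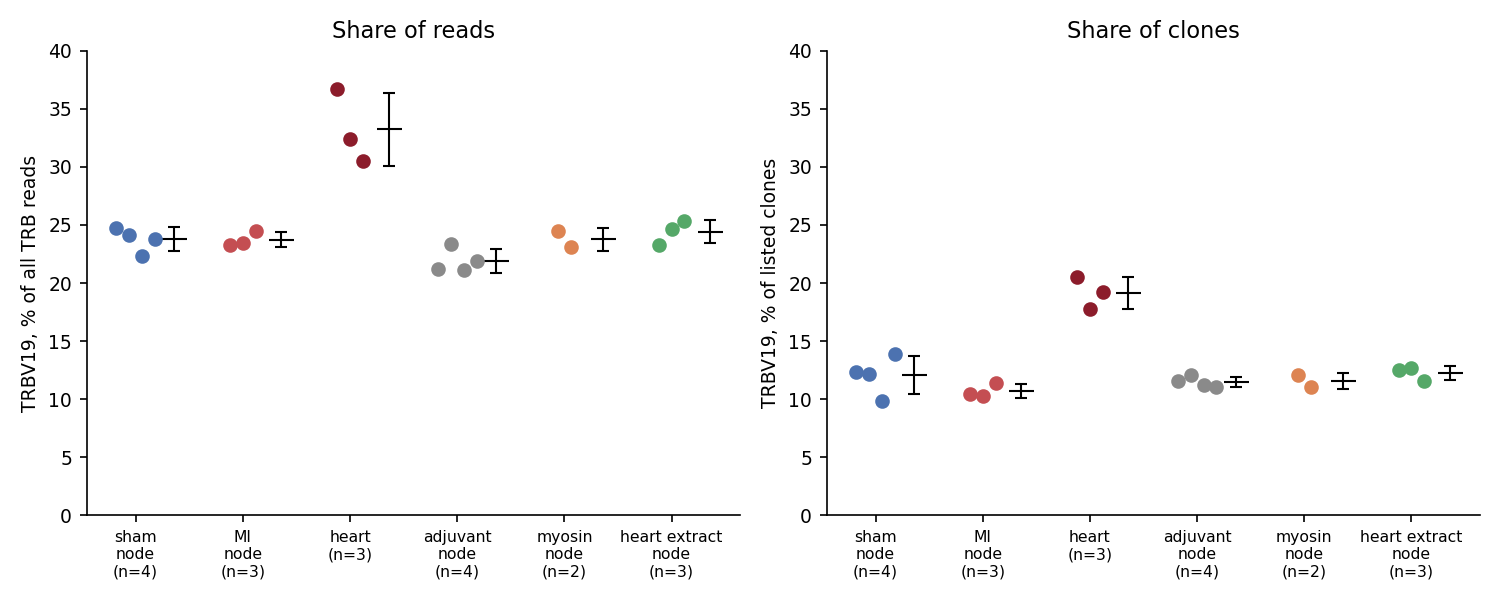
TRBV19 as a percent of all TRB reads (left) and of all listed clones (right) in each library, by group. Points are libraries and bars are the mean ± SD. By reads the 3 hearts lie between 30.5% and 36.7% and the 16 nodes between 21.1% and 25.3%, and by clones the hearts lie between 17.7% and 20.5% and the nodes between 9.89% and 13.9%.

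Over the 16 nodes the log2 share of TRBV19 moved most closely with those of TRBV30 (Pearson r 0.457, Spearman rho 0.447), TRBV1 (0.431 and 0.468) and TRBV31 (0.270 and 0.144). It moved most against TRBV5 (r -0.761, rho -0.750), TRBV17 (-0.533 and -0.488) and TRBV20 (-0.505 and -0.541). These values are a description: shares of 1 library sum to a fixed total, TRBV5 is the other large segment at 20.02% of node reads on average, and several node groups share a treatment or site. The other segments known to react with Mtv-7, TRBV29 (Vbeta7), TRBV13-3 (Vbeta8.1) and TRBV17 (Vbeta9), summed to 2.97% ± 0.533 of reads in sham nodes (n = 4), 2.99% ± 0.340 in MI nodes (n = 3), 2.61% ± 0.920 in hearts (n = 3), 2.79% ± 0.184 after adjuvant (n = 4), 2.67% ± 0.0183 after myosin (n = 2) and 2.61% ± 0.0790 after heart extract (n = 3). Unlike that of TRBV19, the highest group mean of this sum was in a node group. The members differed: TRBV13-3 and TRBV17 had their highest group mean in a node group. TRBV29 had its highest in hearts, at 0.962% ± 0.252 (n = 3), against 0.853% ± 0.543 in sham nodes (n = 4), its highest node group.

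Joining segments were compared between TRBV19 and all other variable segments pooled, within each of the 16 nodes. TRBV19 used TRBJ1-3 more, at 10.8% ± 0.819 of its reads against 7.69% ± 0.385 (SD, n = 16). The difference was 3.12 percentage points and was positive in 16 of 16 nodes (two-sided sign-flip permutation test, adjusted p 6.7e-05 over all segments and measures, from the smallest p that 16 nodes can give). It used TRBJ2-2 more by 1.83 points (6.83% ± 0.423 against 4.99% ± 0.408, 16 of 16 nodes, the same adjusted p). TRBJ1-1 (1.45 points, 16 of 16 nodes), TRBJ1-4 (1.24 points, 15 of 16) and TRBJ2-1 (0.708 points, 15 of 16) were also higher and passed. TRBV19 used TRBJ2-5 less, at 6.77% ± 0.459 against 10.7% ± 0.712, lower in 16 of 16 nodes by 3.92 points. TRBJ2-7 was lower by 2.72 points in 16 of 16 nodes and TRBJ2-3 by 1.54 points in 15 of 16, and both passed. TRBJ1-2, TRBJ1-5 and TRBJ2-4 did not pass, with mean differences of -0.12, -0.043 and -0.0049 points.

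Such departures were the rule among segments. With mean CDR3 length as the 12th measure, 9 of 12 TRBV19 measures passed, and 80% of all 240 combinations of segment and measure did. For TRBJ1-3 the difference of TRBV19 was the third in absolute size among 20 segments (median over segments 1.97 points), and for TRBJ2-5 it was the fifth (median 1.98). For TRBJ2-2 it was in 8th place and for TRBJ1-1 in 15th place.

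**Figure D2:**
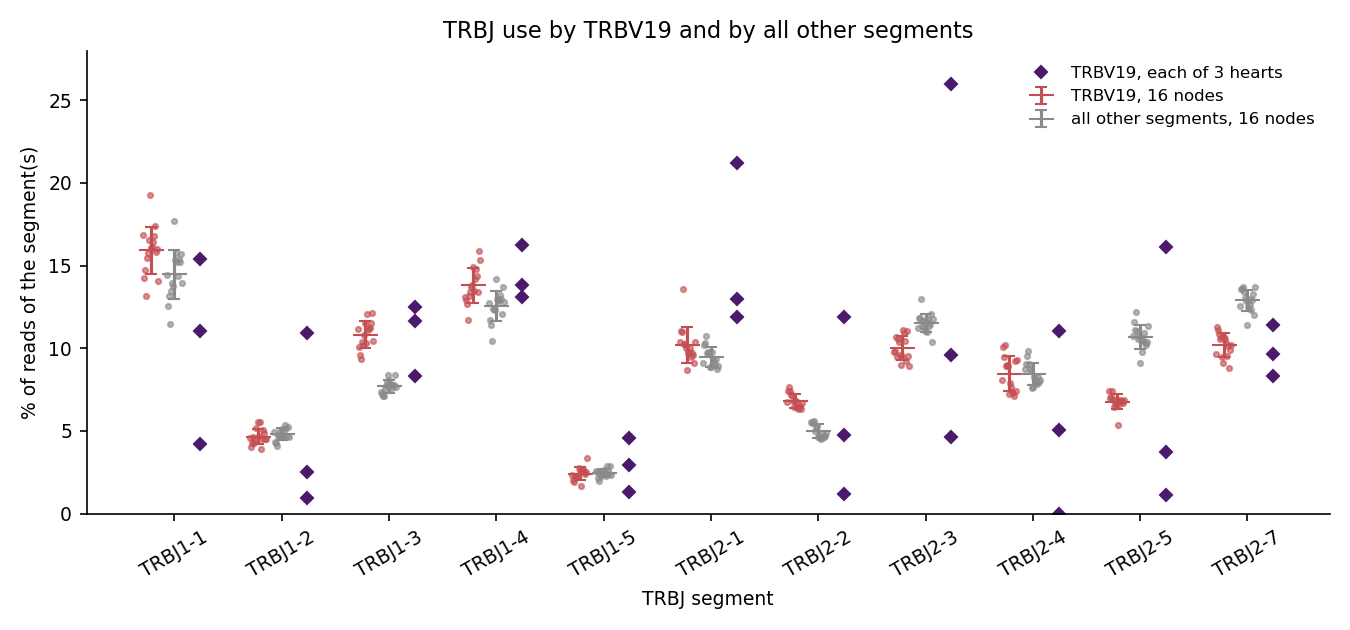
Use of each TRBJ segment as a percent of TRBV19 reads (red) and of the reads of all other segments (grey) in the 16 nodes, and of TRBV19 reads in each heart (diamonds). Small points are libraries and bars are the mean ± SD over nodes. TRBV19 exceeds the other segments for TRBJ1-3 and TRBJ2-2 and lies below them for TRBJ2-5 and TRBJ2-7 in all 16 nodes, and the hearts spread widely, from 4.63% to 26.0% for TRBJ2-3.

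Whether TRBV19 pairing differed between groups was tested on the reads of each TRBJ within each TRBV segment, fitted together for all segments with edgeR's quasi-likelihood test. After infarction against sham, 0 of 11 TRBV19 pairs passed, and 0% of all 220 pairs did; DESeq2 called 0 too, and the unadjusted p of 1 TRBV19 pair was under 0.05. The largest shift was TRBJ2-1, at 10.2% ± 0.129 in MI nodes and 11.5% ± 1.41 in sham nodes (log2 -0.18, edgeR adjusted p 0.894). After heart extract against adjuvant, 0 of 11 passed (0% of all pairs; 1 TRBV19 pair with an unadjusted p under 0.05; DESeq2 0). The smallest edgeR p there was for TRBJ2-4 (log2 0.20, adjusted p 0.518), which held 9.21%, 7.42% and 9.27% after heart extract against 7.25% to 7.92% after adjuvant, so the groups overlap. After myosin against adjuvant, 0 of 11 passed as well (0% of all pairs; 0 with an unadjusted p under 0.05; DESeq2 0). These immunization comparisons share the adjuvant libraries.

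Between sites, sham mediastinal against adjuvant axillary nodes, 5 of 11 TRBV19 pairs passed, 4 higher and 1 lower in sham nodes, against 24.1% of all 220 pairs. These groups differ in surgery and adjuvant as well as in site, and the 3 cannot be told apart. TRBJ2-4 held 8.07%, 10.1%, 9.47% and 10.2% of TRBV19 reads in sham nodes 1 to 4. It held 7.25%, 7.92%, 7.63% and 7.35% in adjuvant nodes 1 to 4, all below the lowest sham node (log2 0.33, SE 0.0775, edgeR adjusted p 0.0116). TRBJ2-1 was higher in sham nodes, at 10.4%, 11.03%, 10.98% and 13.6% against 8.69%, 9.69%, 9.80% and 9.99%, again without overlap (log2 0.27, SE 0.0739, edgeR adjusted p 0.0215). TRBJ2-5 (log2 0.19) and TRBJ2-2 (0.14) were higher and TRBJ1-4 (-0.16) lower, each with an edgeR adjusted p just under the threshold of 0.05, at 0.0496, 0.0499 and 0.0496. TRBJ2-4 passed in all 16 alternative fits and TRBJ2-1 in 13. TRBJ2-5, TRBJ1-4 and TRBJ2-2 passed in 6, 5 and 3, and TRBJ2-2 turned to -0.040 when clones were counted in place of reads. The count of TRBV19 calls fell to 2 without sham node 2, to 2 without sham node 3, to 1 without sham node 4 and to 1 without adjuvant node 1. DESeq2 called 7, 4 higher and 3 lower. With library totals scaled by TMM (trimmed mean of M values) in place of segment totals, 2 were higher and 0 lower.

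Most of the other 19 segments had estimates of the same sign for these pairs. TRBJ2-4 was higher in sham nodes for 16 of them, with 10 calls, and their median log2 fold change was 0.26. TRBJ2-1 was higher for 17 (4 calls, median 0.19), and TRBJ1-4 was lower for 14 (7 calls, median -0.20). TRBJ1-1 was called lower in 10 other segments (median -0.30), while TRBV19 had -0.20 with an edgeR adjusted p of 0.0568. The TRBJ1 segments of TRBV19 all had negative estimates, from -0.20 to -0.16, and 4 of 5 did not pass. Whether any shift differed between TRBV19 and the other segments was not tested.

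**Figure D3:**
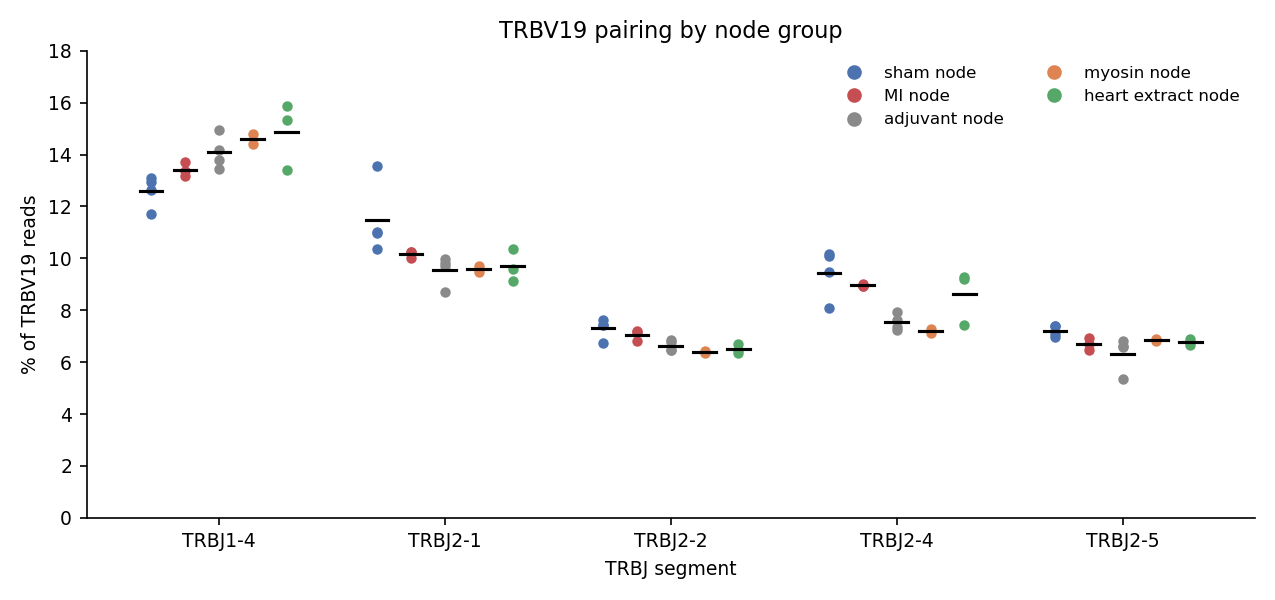
Percent of TRBV19 reads with each of 5 TRBJ segments in the 16 node libraries, by group. Points are libraries and bars are group means. For TRBJ2-4 the 4 adjuvant nodes lie between 7.25% and 7.92% and the 4 sham nodes between 8.07% and 10.2%.

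In hearts the TRBJ use of TRBV19 spread far more than in nodes, and 0 of 11 pairs passed against MI nodes. The standard errors of these log2 differences ran from 0.130 (TRBJ1-4) to 2.43 (TRBJ2-4). On simulated reads this fit recovered 0% of 8-fold changes, which were set in low-share pairs of segments drawn at random. That rate was not measured for TRBV19 pairs as such, and need not hold for those with small standard errors. With standard errors this uneven, the 0 calls for TRBV19 do not show that pairing was alike. In all segments 9.09% of 187 pairs passed, each lower in hearts, and DESeq2 also called 0 TRBV19 pairs; 0 had an unadjusted p under 0.05 in edgeR. With heart and MI node paired by number, the 17 calls over all segments fell to 0, and without any single MI node they were 0 as well. With clones in place of reads they were also 0. They rose to 34, 32 and 39 without heart 1, 2 or 3, and to 33 with DESeq2. TRBJ2-3 held 26.0%, 9.56% and 4.63% of TRBV19 reads in hearts 1 to 3, against 9.60% to 10.6% in MI nodes. TRBJ2-5 held 1.13%, 3.72% and 16.1%, against 6.46% to 6.91% in MI nodes. TRBJ2-1 held 11.9%, 21.2% and 12.95%, all above the 10.02% to 10.3% of MI nodes (log2 0.60, SE 0.256, edgeR adjusted p 0.328). TRBJ2-4 with TRBV19 was not listed in heart 1, and held 5.06% and 11.1% in hearts 2 and 3. Single clones supplied much of these values: the largest clone of heart 3 was 10.5% of its TRBV19 reads, of the 16.1% that used TRBJ2-5.

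CDR3 length within TRBV19 was steady in the nodes. The mean over reads ran from 11.88 to 11.99 residues (mean 11.94 ± 0.0303, n = 16), with 31.6% ± 0.819 of reads at 12 residues, 23.4% ± 0.700 at 13 and 21.6% ± 0.783 at 11. By joining segment the mean ran from 11.2 ± 0.0509 residues with TRBJ2-7 to 12.5 ± 0.0678 with TRBJ2-2. TRBV19 loops were shorter than those of all other segments pooled in 16 of 16 nodes, by 0.197 ± 0.0311 residues (adjusted p 6.7e-05, sign-flip permutation test). In this measure 95% of the 20 segments passed, and TRBV19 was 14th in absolute size. With both given the same TRBJ mix the difference was -0.23 ± 0.0271, and TRBV19 was the shorter with all 11 TRBJ segments in each node. The sign rests on how the others are pooled: against their mean with equal weight per segment, TRBV19 was longer by 0.169 residues. TRBV5, the other large segment, was longer than the rest by 0.727 residues.

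Heart means were 12.07, 11.91 and 11.83 residues in hearts 1 to 3, overlapping the MI nodes at 11.96, 11.96 and 11.91. None of the 5 group comparisons of TRBV19 length passed. The differences were -0.0041 residues for MI against sham, -0.0073 for heart against MI node, 0.037 for heart extract against adjuvant, 0.015 for myosin against adjuvant and 0.033 for sham against adjuvant. Their adjusted p-values ran from 0.286 to 0.914 (exact two-sided permutation tests). The heart design can give no p below 0.100, and the myosin design none below 0.0667. The other 3 designs can give no p below 0.0286, and adjusted over the 5 comparisons none of them could pass on its own. The lack of a call therefore does not show that lengths were alike. Reads at 10 residues made up 17.05% ± 4.22 in hearts (lowest 13.5%, n = 3) and 9.51% ± 0.838 in nodes (highest 10.7%, n = 16). Reads at 11 residues made up 11.9% ± 5.15 in hearts (highest 16.8%) and 21.6% ± 0.783 in nodes (lowest 19.7%). These 2 lengths were picked after their values were seen, and carry no test.

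Within the sequence, 4 letters stood out as a frequent start. TRBV19 CDR3s that began ASSI held 34.9% ± 1.24 of TRBV19 reads in the nodes (lowest 32.6%, highest 36.8%, n = 16). Next came ASSR at 8.66% ± 0.684, ASSP at 7.92% ± 0.637 and ASSM at 7.04% ± 0.557. Isoleucine at residue 4, whatever the first 3 residues, held 35.2% ± 1.22 of TRBV19 reads and 0.313% ± 0.0347 of the reads of all other segments. By clones it was 28.3% ± 1.96 of TRBV19 in the nodes, so clones with it had more reads than TRBV19 clones on average.

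By group, isoleucine at residue 4 held 34.99%, 35.1%, 36.5% and 35.4% of TRBV19 reads in sham nodes 1 to 4, and 34.8%, 34.99% and 34.1% in MI nodes 1 to 3. The MI nodes lay below the sham nodes with almost no gap (difference -0.86 points, exact permutation p 0.114, adjusted p 0.571), and by clones the difference was 0.785 points in the other direction. Hearts 1 to 3 held 52.3%, 45.3% and 27.3%: hearts 1 and 2 lay above every node and heart 3 below every node. The difference from MI nodes was 7.00 points with an SD of 12.9 among hearts (exact permutation p 0.40, adjusted p 0.571). Without heart 3 it was 14.2 points and without heart 1 it was 1.65 points. By clones it was -2.97 points. The largest clone of heart 2 begins ASSI, and those of hearts 1 and 3 do not. The other 3 comparisons differed by 0.271 to 1.35 points, with adjusted p from 0.571 to 0.667 (exact permutation tests).

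Clone sizes within TRBV19 differed widely between hearts and nodes. TRBV19 clones listed were 647, 799 and 1011 in hearts 1 to 3, and from 5240 to 29913 in nodes. The largest clone took 6.77%, 8.66% and 10.5% of the TRBV19 reads of hearts 1 to 3, and from 0.0689% to 0.979% in nodes. The 10 largest clones took 45.5%, 40.9% and 34.1% in hearts and 1.26%, 1.10% and 2.25% in MI nodes, a 26.1-fold ratio of the group means. The groups did not overlap, and the exact permutation p was 0.100 (adjusted 0.333), the smallest this design can give. Drawn to 890961 TRBV19 reads each, hearts listed 647, 770 and 965 distinct clones and MI nodes 25700, 28863 and 18300 (exact permutation p 0.100, adjusted 0.250). The 12, 14 and 19 largest clones held 50% of the TRBV19 reads in hearts 1 to 3, against 438 to 4837 in nodes. The numbers of cells sorted set a limit of their own here, since a heart library started from 5000 cells of all segments together. Heart 3 nonetheless listed 5247 clones of all segments, more than the cells sorted.

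Most listed heart clones were small. In hearts 1 to 3 only 65, 98 and 105 TRBV19 clones had at least 100 reads, and they held 99.1%, 99.3% and 99.2% of TRBV19 reads. Of the smaller ones, 96.2%, 93.9% and 95.8% lay 1 residue away from a clone of at least 100 reads with the same TRBJ. In nodes that value ran from 47.4% to 99.2%. Among heart clones of at least 100 reads, those with TRBV19 had mean reads 3.62, 2.87 and 3.15 times those of other segments, while their share of clone number lay below that of every MI node. In nodes the ratio of mean reads ran from 0.936 to 2.72, below each heart. With fewer cells sorted from hearts, 100 reads need not mark clones of the same number of cells in hearts and nodes. Of the 100 largest clones of all segments in each heart, 40, 43 and 46 used TRBV19, and in nodes 20 to 48 did.

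Among node clones of at least 10 reads, the median TRBV19 clone had 2.25 to 7.39 times the reads of the median clone of the other segments. By this median TRBV19 was second of 22 segments in 16 of 16 nodes, behind TRBV14 (Vbeta13). In hearts 1 to 3 the ratio was 0.610, 0.911 and 0.538, and TRBV19 was 14th, 10th and 13th. The direction depends on the read minimum: among clones of at least 100 reads the ratio of medians was 5.22, 4.57 and 6.85 in hearts and 0.974 to 3.70 in nodes.

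Between node groups none of the clone size measures passed. At 1637679 TRBV19 reads each, MI nodes listed 26452, 29814 and 19944 distinct TRBV19 clones and sham nodes 16472, 16343, 26790 and 8658, so the groups overlap (ratio of means 1.49, exact permutation p 0.171, adjusted 0.250). Sham against adjuvant gave a ratio of 1.73 (p 0.143), myosin against adjuvant 1.39 (p 0.200) and heart extract against adjuvant 0.898 (p 0.771), all exact permutation tests with an adjusted p of at least 0.250. The 10 largest clones held 1.29% and 1.12% of TRBV19 reads after myosin and 1.85% to 3.17% after adjuvant. Those groups did not overlap (exact permutation p 0.133, adjusted 0.333), and this design can give no p below 0.0667.

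**Figure D4:**
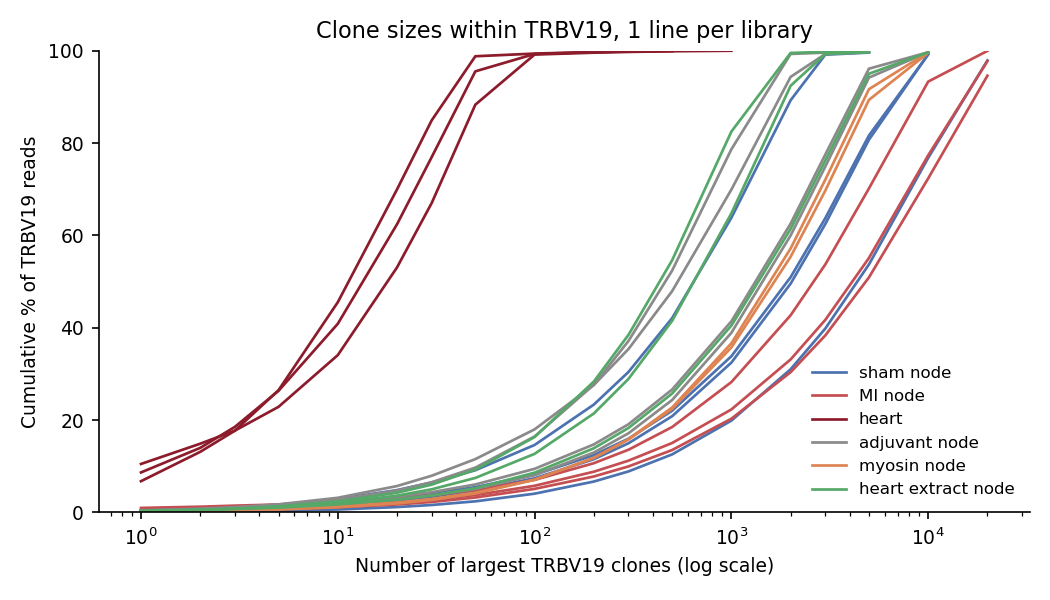
Cumulative percent of TRBV19 reads held by the largest TRBV19 clones, with the number of clones on a log axis and 1 line per library. The 10 largest clones reach 34.1% to 45.5% in the 3 hearts and 0.635% to 3.17% in the 16 nodes.

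The leading heart clones differed between hearts. In heart 1 the first was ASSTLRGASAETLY with 60282 reads (6.77% of TRBV19 reads), which was listed in 0 of 16 nodes. The next 4 all begin ASSI and are printed to show that shared start.
Rank 2 in heart 1, with TRBJ2-3: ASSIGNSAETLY
Rank 3 in heart 1, with TRBJ1-1: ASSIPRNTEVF
Rank 4 in heart 1, with TRBJ2-1: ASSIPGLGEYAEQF
Rank 5 in heart 1, with TRBJ1-4: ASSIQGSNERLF
They had 56661, 40772, 39441 and 38825 reads. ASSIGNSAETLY was listed in 8 nodes with at most 397 reads, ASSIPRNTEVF in 6 with at most 218, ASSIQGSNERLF in 10 with at most 1125, and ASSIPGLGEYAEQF in 1 with 2.

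In heart 2 the first clone was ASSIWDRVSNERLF with 123573 reads (8.66%). That clone was listed in 2 nodes, with the most reads, 115, in MI node 2. The next 4 had 75908, 64909, 56151 and 55345 reads.
Rank 2 in heart 2, with TRBJ2-2: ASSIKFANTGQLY
Rank 3 in heart 2, with TRBJ2-1: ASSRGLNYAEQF
Rank 4 in heart 2, with TRBJ2-1: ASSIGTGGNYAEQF
Rank 5 in heart 2, with TRBJ2-3: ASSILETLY
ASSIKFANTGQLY was listed in 1 node, the same-numbered MI node 2, with 199 reads. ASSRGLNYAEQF was listed in 0 nodes, and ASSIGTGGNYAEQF in 8, with the most in heart extract node 3 (2581 reads) and adjuvant node 2 (739) and with 396, 106 and 172 in MI nodes 1 to 3. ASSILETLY, with 9 residues, was listed in 2 nodes with at most 75 reads.

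In heart 3 the first clone was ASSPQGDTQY with 164396 reads (10.5%). It had 5130 reads in MI node 3, rank 3 among that node's TRBV19 clones, against 10 and 16 in MI nodes 1 and 2. The next 4 had 68700, 44403, 41749 and 38900 reads.
Rank 2 in heart 3, with TRBJ1-2: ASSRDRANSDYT
Rank 3 in heart 3, with TRBJ2-7: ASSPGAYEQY
Rank 4 in heart 3, with TRBJ1-2: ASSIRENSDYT
The clone at rank 5, also with TRBJ1-2, has 12 residues. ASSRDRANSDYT had 2734 reads in MI node 3, rank 5 among its TRBV19 clones, and 313 and 175 in MI nodes 1 and 2. It was listed in 9 nodes, with 1123 reads in sham node 2 and 568 each in myosin node 2 and heart extract node 2. In the reverse direction, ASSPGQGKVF, the largest TRBV19 clone of MI node 3 with 21935 reads (0.979%), had 16504 reads in heart 3 (1.05%) and was listed with TRBV19 in no other library.

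Hearts shared few TRBV19 clones. Of 2451 distinct TRBV19 clones in any heart, 6 were listed in 2 hearts and 0 in all 3. Most of the 2451 are small entries: only 65, 98 and 105 clones of hearts 1 to 3 had at least 100 reads. The same count is not given here for the other segments, so it cannot be read as a trait of TRBV19. In each of the 6 one heart had at most 23 reads: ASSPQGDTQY had 164396 reads in heart 3 and 3 in heart 2, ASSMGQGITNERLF 23453 in heart 3 and 3 in heart 2, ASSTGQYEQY 18795 in heart 3 and 23 in heart 2, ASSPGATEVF 16496 in heart 1 and 20 in heart 3, and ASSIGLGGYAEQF 12478 in heart 1 and 2 in heart 3. The libraries were pooled and sequenced together, per the labels' protocols, and the part of that in such low counts was not tested. The sixth, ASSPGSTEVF, named after its values were seen, had 515 reads in heart 2 and 5 in heart 1.

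Heart TRBV19 clones were looked up in each node library, by CDR3 and TRBJ. Clones also listed in the same-numbered MI node carried 38.5%, 52.3% and 48.2% of the TRBV19 reads of hearts 1 to 3. As means over the 3 hearts this was 46.3% ± 7.10, against 33.8% ± 7.11 in the other MI nodes, 21.5% ± 2.04 in sham nodes and 11.3% ± 1.99 in axillary nodes. By reads the same-numbered node led for hearts 2 and 3, and for heart 1 MI node 2 led with 41.4%. By clones the same-numbered MI node led all 16 nodes for each heart, with 59, 68 and 109 clones against at most 52, 53 and 54 elsewhere. The number of node clones moved with this result: MI nodes list 20339 to 29913 TRBV19 clones, sham nodes 8814 to 26916 and axillary nodes 5240 to 14855. MI node 3 listed 109 of the clones of heart 3 although it has the fewest TRBV19 clones of the 3 MI nodes, and lists 36 and 42 of those of hearts 1 and 2. Sham node 3, with 26916 TRBV19 clones, listed 45, 53 and 49 of the clones of hearts 1 to 3. MI node 1, with 26463, listed 44 and 54 of those of hearts 2 and 3, whose numbers it does not share.

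The Morisita-Horn overlap, an index that weighs shared clones by their shares of reads and runs from 0 to 1, gave 0.0384 for heart 3 with MI node 3. For the other 8 pairs of heart and MI node it ran from 0.00107 to 0.00518, and the same-numbered node was the highest for each heart. Deviations of the log share of TRBV19 clones from their group means correlated at 0.284, 0.232 and 0.377 between same-numbered heart and MI node libraries. For the 6 other pairs the values ran from -0.28 to 0.054. Deviations from a group mean cancel out within the group, and these groups are small. A positive value for the same-numbered pair therefore pushes the values of the other pairs down by construction. The gap between same-numbered and other pairs is thus partly fixed in advance and was not tested.

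**Figure D5:**
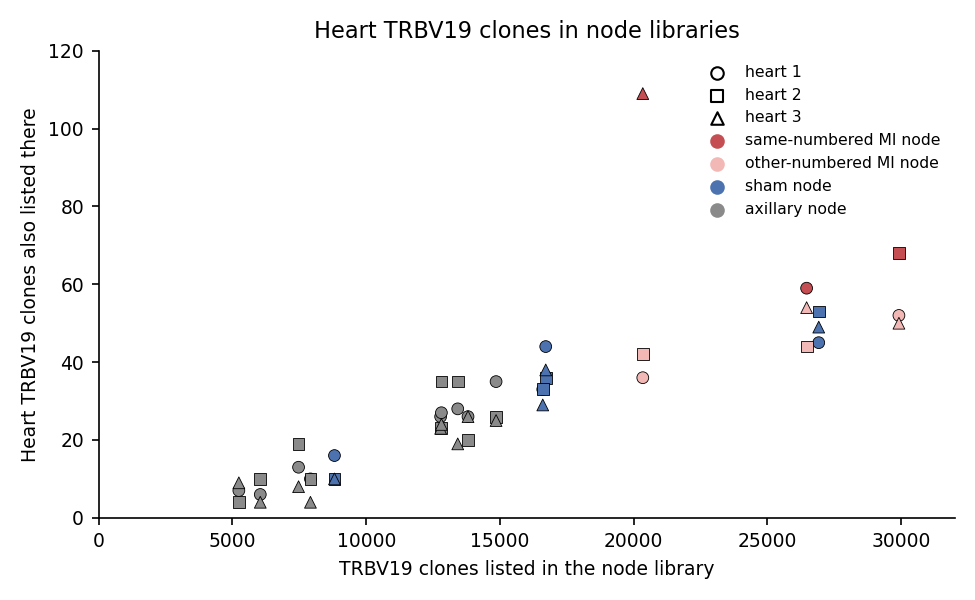
Number of TRBV19 clones of each heart that are also listed in each of the 16 node libraries, against the number of TRBV19 clones that node lists. Symbols mark the heart and colours the kind of node. Counts rise with the size of the node list, and heart 3 in MI node 3 stands apart with 109 clones at 20339 node clones.

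Sharing among nodes was rare for TRBV19. Of 178121 TRBV19 clones listed in any node, 82.9% were in 1 node, against 80.6% for the other segments. Clones in all 16 nodes were 0.00721% of those of the other segments and 5.6e-04% of those of TRBV19, which is 1 clone. That clone, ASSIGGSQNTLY with TRBJ2-4, had 271 to 2015 reads per node (0.0440% ± 0.0251 of TRBV19 reads, n = 16) and was listed in 0 of 3 hearts. Clones in at least 12 nodes, a limit set after the values were seen, were 0.0724% of TRBV19 clones and 0.193% of those of the other segments. The 129 TRBV19 clones of this kind averaged 11.5 residues, and 72.1% of them had isoleucine at residue 4. Among TRBV19 clones of 1 node the mean was 12.2 residues and 24.6% had that isoleucine. In the other segments the mean was 11.5 residues in at least 12 nodes and 12.3 in 1 node. The shorter loops of widely listed clones are thus not particular to TRBV19. The 129 widely listed TRBV19 clones used TRBJ2-7 (23 clones), TRBJ1-3 (21) and TRBJ1-1 (20) most. They held 3.23% ± 0.390 of TRBV19 reads in nodes (lowest 2.69%, highest 4.05%) and 0.00718%, 0% and 1.3e-04% in hearts 1 to 3, where 3, 0 and 1 of them were listed. These clones were chosen for being listed in nodes, and hearts list few clones in all, so the order of node and heart values follows from the choice and is no result.

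The largest TRBV19 clone of a node was mostly specific to few nodes. In sham nodes 1 to 4 these were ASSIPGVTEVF, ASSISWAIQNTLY, a clone of 15 residues with TRBJ2-3 and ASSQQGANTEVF, listed in 5, 1, 2 and 5 nodes. In MI nodes 1 and 2 they were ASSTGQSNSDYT and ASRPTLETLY, each listed in 1. In adjuvant nodes 1 to 4 they were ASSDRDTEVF, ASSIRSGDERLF, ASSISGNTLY and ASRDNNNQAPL, in 4, 2, 11 and 7 nodes. In myosin nodes 1 and 2 they were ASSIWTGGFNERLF and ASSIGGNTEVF, in 1 and 12, and in heart extract nodes 1 to 3 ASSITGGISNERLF, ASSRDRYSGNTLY and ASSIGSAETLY, in 4, 2 and 13 nodes. Of these 15, 0 were listed with TRBV19 in a heart. Their shares of TRBV19 reads ran from 0.0689% in sham node 3 to 0.477% in sham node 4. The 15 leave out the largest clone of MI node 3, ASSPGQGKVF, described above. It had a higher share, 0.979%, and was listed in 1 heart.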

How the data were processed

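TRB repertoires of 19 libraries were used. Per the labels' protocols, RNA of sorted CD4+ T cells was amplified by the provider iRepertoire with arm-PCR (gene-specific first-round primers, then universal primers), and equal masses of all libraries were pooled and sequenced on an Illumina HiSeq. The authors deposited, per library, unnormalised read counts for each combination of CDR3 amino acid sequence, TRBV and TRBJ. For the aligner, error correction and segment reference: not given in the sources used here. Molecular identifiers are not mentioned. An unlisted clone is not a measured 0.

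Entries with TRBV19 were taken by segment name. The members, lists and tests were chosen with earlier results of these data known. TRBJ use within segments was tested with edgeR 4.0.16 (quasi-likelihood, legacy settings, all node groups in 1 fit and hearts with MI nodes in another, segment totals as offsets, segments with at least 1000 reads in every library, pairs with at least 10 reads in 3 libraries, Benjamini-Hochberg adjustment over all pairs; R 4.3.3), and DESeq2 1.42.0 was an alternative. Single values were compared by exact two-sided permutation over libraries, adjusted over the 5 comparisons, and TRBV19 against other segments by sign flips over 16 nodes, adjusted over 240 tests (SciPy 1.17.1). Scripts were tested on simulated data, for the edgeR fits with 12 changed pairs at each size, all of low share and in segments drawn at random. The MI against sham fit recovered 33.3% of them at 1.25-fold, 50% at 2-fold and 100% at 8-fold. The heart against MI node fit recovered 0% at each of these sizes. Distinct clones were compared after drawing equal numbers of TRBV19 reads.

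Named clones are the largest of each library, the 5 largest of each heart, up to 5 in at least 2 hearts and those in all 16 nodes; named segments are the 3 of highest and 3 of lowest correlation with TRBV19 over nodes. Alternatives were DESeq2, TMM, other edgeR settings, clones in place of reads, filters at 10 reads, other segment minimums, the replicate number as a block, and leaving out each library. Same-numbered heart and MI node libraries were read as a pairing from the data, since all 3 correlated above 0.1 over TRBV19 clones. The lower values of the other pairs add no separate support, since deviations from a group mean cancel out within the group. Over TRBV-TRBJ pairs the values were 0.0735, 0.134 and 0.0961. The main heart tests and their p-values are unpaired. Among the tests, the pairing enters only the alternative with the replicate number as a block. The labels do not state that pairing. Node groups share only numbers.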

Additional observations from a re-analysis of the deposited data

Results flagged for a closer look

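In 32 checks of TRBV19 values within groups of 4 libraries, 3 single libraries lay far from the other 3, and chance gives about 1 in 20. Adjuvant node 2 had a mean TRBV19 CDR3 length of 11.95 residues, with the others between 11.90 and 11.91. Adjuvant node 1 used TRBJ1-1 for 19.3% of TRBV19 reads, with the others between 16.1% and 16.4%. Adjuvant node 3 used TRBJ2-5 for 5.34%, with the others between 6.56% and 6.81%.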

How the results depend on the processing

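Of the main values recomputed, 265 kept their direction and call or moved by less than the replicate spread, 24 moved and 15 changed sign. The sign changes were in differences that did not pass a test. No permutation comparison of groups had passed. In those tests 3 against 3 libraries can give no p below 0.100, and the myosin design none below 0.0667. The other 3 designs can give no p below 0.0286, and adjusted over the 5 comparisons none of them could pass on its own. A kept call there was largely fixed in advance and is no sign of robustness. Values of TRBJ pairing: the 5 TRBV19 calls of sham against adjuvant nodes became 7 with DESeq2 (4 higher, 3 lower), 2 with TMM, 2 with clones in place of reads, 2 without entries under 10 reads, 2 with segments of at least 100 reads, 3 with the replicate block, and 1 to 6 with a library left out. The numbers of these node groups do not pair the samples; the replicate block left the other 4 comparisons at 0 TRBV19 calls. Counted by clones, the TRBJ2-2 difference was -0.040. Shares by clones in place of reads were 12.1% (sham), 10.7% (MI), 19.2% (heart), 11.5% (adjuvant), 11.6% (myosin) and 12.2% (heart extract) for TRBV19, and 7.61%, 8.34%, 6.64%, 7.07%, 7.62% and 6.75% in the same order for the other Mtv-7-reactive segments. TRBV19 held 24.9% in MI nodes without entries under 10 reads, and 44.0% in hearts without the 10 largest clones of every segment, which removes most reads of small segments by construction. Heart clones in sham nodes fell to 19.3% of heart reads when at least 10 node reads were required.

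With a library left out, the length difference ran from -0.013 to 0.012 for MI against sham, -0.075 to 0.049 for heart against MI node and -0.034 to 0.063 for myosin against adjuvant, where the mean over clones gave -0.016. Distinct clones of heart extract minus adjuvant ran from -3320.5 to 821.5, the 10 largest clones of MI minus sham from -0.66 to 0.083 points, and isoleucine at residue 4 of myosin minus adjuvant from -0.90 to 1.44. By clones that isoleucine differed by 0.785 (MI minus sham) and -2.97 points (heart minus MI node). Against other segments weighted equally, TRBJ2-4 was 0.574 points and length 0.169 residues higher; without entries under 10 reads TRBJ2-4 was 0.032 higher. Of the single pairs and differences named, 73 values kept their call, 36 lost it, 3 gained it and 4 changed sign. The causes were not tested. What limits these comparisons, group size or depth, was not tested.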
